A study of Brachypodium distachyon with 214 samples.

Results

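The 66 transcripts described here are the nuclear genes of Brachypodium distachyon, a small cool-season grass, whose leaf transcript abundance fell to at most 50% of the control level under soil drying in both of the accessions studied, Bd21 and Bd3-1. Abundance was expressed in counts-per-million units (CPM), each count being divided by the summed counts of its library. A gene was a member if its mean was at least 4 CPM in both control groups and its droughted mean was at most 50% of the control mean in Bd21 and in Bd3-1. Of 32523 rows in the table, 32439 were nuclear, 12346 of these reached the floor of 4 CPM in both control groups, and 66 were members. The members were thus chosen by the drought to control ratios of mean CPM, so these ratios are given below as a description and without a test.

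The youngest fully expanded leaf was sampled from 214 plants, each sequenced as 1 library by a 3′ tag method. Control plants, 48 of Bd21 and 58 of Bd3-1, were held at 85% of field capacity, which is the moisture a pot keeps once it has drained, whereas drought plants, 49 of Bd21 and 59 of Bd3-1, were dried from day 33 over 6 days to 55% of field capacity. Both accessions are inbred natural lines, and each library came from a separate plant. Libraries held between 0.525 M and 8.37 M counts (M, mega) with a median of 1.92 M, so that low members rested on few counts per library. One Bd3-1 drought library, replicate 59, went against its label: of 31 genes with at least 10 CPM in Bd21 control and at most 1 CPM in Bd3-1 control plants, 31 were at 5 CPM or more in it, against 0 to 2 in the other Bd3-1 drought libraries and 30 to 31 in the Bd21 drought libraries. It was left out of the values below, which leaves 58 Bd3-1 drought plants, and the same 66 genes met the rule with it included. The leaf identity of the samples was checked with 3 loci that the study lists together as encoding small subunits of Rubisco and a photosystem II polypeptide. Bradi4g08500 had means of 6696 CPM in Bd21 control, 4316 CPM in Bd21 drought, 7004 CPM in Bd3-1 control and 4571 CPM in Bd3-1 drought plants. Bradi4g08800 was at 4938, 3408, 5236 and 3562 CPM and Bradi1g63300 at 16.6, 13.4, 22.5 and 21.6 CPM in the same order, and the part of these transcripts in the falls of the members was not tested. All 3 were lower under drought in Bd21 at an adjusted p of 0.05 (edgeR), and 2 of the 3 in Bd3-1, where Bradi1g63300 did not pass.

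When soil dries, leaves of grasses close their stomata, accumulate the hormone abscisic acid and slow growth and carbon gain, and the transcript pool is rebuilt as protective proteins are made and parts of the photosynthetic and growth programmes are turned down. Starch and sugars are remobilised, and enzymes that supply reducing power are redistributed between pathways of growth and of protection. In a bulk leaf sample, fewer cells of a type and less RNA per cell cannot be told apart. Among the members only Bradi1g22050 carries a protein name in the study's text, where it is given as a 6-phosphogluconolactonase, an enzyme of the oxidative pentose phosphate pathway, which makes reducing power and sugar phosphates from glucose 6-phosphate. The other 65 are described by locus, and no role is given to them here.

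The level that remained in droughted plants ranged over the 66 members from 19.8% to 49.9% of control in Bd21 (median 41.9%) and from 18.9% to 48.9% in Bd3-1 (median 38.1%). Over all 12346 genes at or above the floor, the median gene stood at 105% and 103% of control. The level left was 25% or less for 4 members in Bd21 and for 7 in Bd3-1. The rule alone was met by 82 genes in Bd21 (0.664% of the 12346) and by 116 in Bd3-1 (0.94%), and the 66 members were 0.535% of them. The mirror rule, a droughted mean of no less than the control mean doubled in both accessions, was met by 67 genes (0.543%). The 16 genes that were at or below 50% of control in Bd21 only kept between 50.6% and 83.0% of control in Bd3-1. Of the 50 that were at or below 50% in Bd3-1 only, 48 were also below their control mean in Bd21, where the 50 kept a median of 61.8%.

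The edge of the rule fell among close values. Just inside, Bradi4g30850 kept 49.9% in Bd21 and 44.0% in Bd3-1, Bradi1g78260 kept 49.4% in Bd21 and 35.6% in Bd3-1 and Bradi4g08830 kept 49.3% in Bd21 and 33.8% in Bd3-1. Just outside, Bradi5g18040 kept 50.4% in Bd21 and 46.1% in Bd3-1. Bradi3g37940 kept 45.8% and 50.6%, and Bradi3g31810 kept 45.2% and 51.1%. In the fit across all genes, all 66 members passed an adjusted p threshold of 0.05 downward in each accession, where 11.2% of 26109 tested genes did so in Bd21 and 15.3% of 26072 in Bd3-1. Nothing is read from that count, because the rule used the same contrast.

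**Figure D1:**
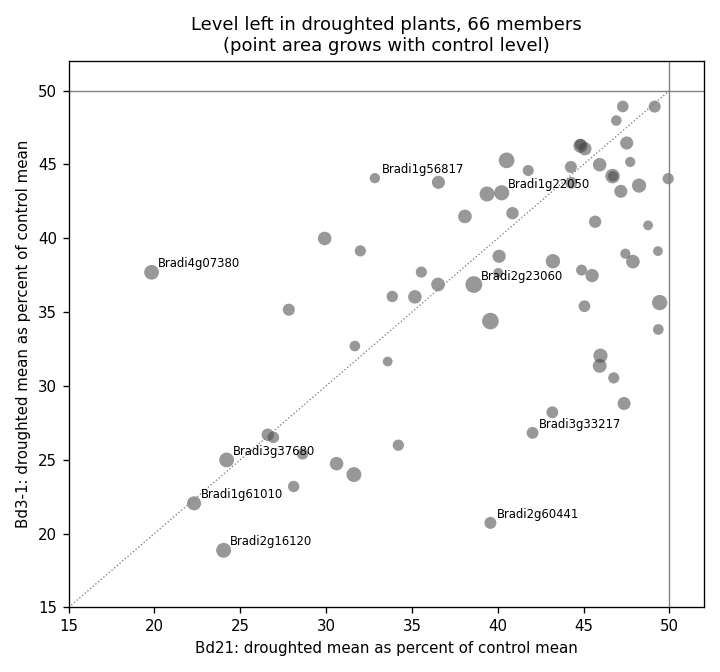
Level left in droughted plants of Bd3-1 (vertical axis) against Bd21 (horizontal axis), each as a percent of the accession's own control mean, with 1 point per member and lines at the 50% that the rule set. Bradi2g16120 and Bradi1g61010 lie low in both accessions, whereas Bradi4g07380 at 19.8% and 37.7% and Bradi2g60441 at 39.6% and 20.7% lie far from the diagonal.

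Members were of ordinary abundance. Their mean control level ran from 4.57 to 226 CPM with a median of 15.1 CPM, against a median of 17.4 CPM over the 12346 genes, and 22 members were below 10 CPM. Summed over the 66 members, the level in control plants was 1861 ± 433 CPM in Bd21 (SD, n = 48) and 2091 ± 275 CPM in Bd3-1 (SD, n = 58). In droughted plants it was 712 ± 207 CPM (SD, n = 49) and 766 ± 187 CPM (SD, n = 58). The 4 most abundant members carried 35.1% of that sum in Bd21 control plants and 27.3% in Bd3-1 control plants.

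Bradi2g23060 was the most abundant member. Its level ranged from 91.5 to 713 CPM (median 279.8) in the 48 Bd21 control plants and from 22.2 to 320.0 CPM (median 101) in the 49 Bd21 drought plants. In Bd3-1 it ranged from 34.9 to 371 CPM (median 144) in control and from 13.4 to 176 CPM (median 50.5) in drought plants. The groups overlapped in both accessions, yet 48 of 49 and 56 of 58 droughted plants were below the control median. The mean left under drought was 38.6% in Bd21 and 36.9% in Bd3-1.

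Bradi4g26750 was next in abundance and among the steadiest from plant to plant. In Bd21 it ranged from 94.1 to 264 CPM (median 191) in control and from 41.8 to 114 CPM (median 70.7) in drought plants. In Bd3-1 the corresponding values ran from 101 to 309.5 CPM (median 203) and from 38.4 to 107 CPM (median 68.6). Few plants overlapped: 41 of 49 Bd21 and 57 of 58 Bd3-1 droughted plants were below the lowest control plant of their accession. The coefficient of variation (CV, the SD divided by the mean) was 0.219 in Bd21 control and 0.206 in Bd3-1 control plants.

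Bradi1g22050, the 6-phosphogluconolactonase, ranged from 29.4 to 120.1 CPM (median 60.9) in Bd21 control and from 8.5 to 51.4 CPM (median 25.9) in Bd21 drought plants. In Bd3-1 it ranged from 27.3 to 137 CPM (median 91.3) in control and from 19.8 to 77.3 CPM (median 34.4) in drought plants. Every droughted plant of either accession was below its control median, and 37 of 49 in Bd21 and 13 of 58 in Bd3-1 were below the lowest control plant. The mean left was 40.2% in Bd21 and 43.1% in Bd3-1.

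The study's text names Bradi1g22050 beside other loci of primary metabolism, and most of these did not fall with it. Of 6 carbon-metabolism loci that include it, 2 rose and 2 fell in Bd21, and 3 rose and 2 fell in Bd3-1 at an adjusted p of 0.05 (edgeR quasi-likelihood test over all genes). Bradi3g33930, a pyruvate kinase of glycolysis, rose by 0.30 ± 0.11 (SE) on the log2 scale in Bd21 and by 0.24 ± 0.07 in Bd3-1. Bradi2g56700, a galactosyltransferase, rose by 1.197 ± 0.20 in Bd21 and by 1.99 ± 0.19 in Bd3-1. Bradi1g18650, a glucanotransferase, passed in neither accession, at -0.15 ± 0.08 in Bd21 and 0.15 ± 0.07 in Bd3-1. Bradi5g14580, an endoglucanase, is counted in another list and rose by 0.34 ± 0.09 and 0.61 ± 0.09. Bradi4g15010, which the study places in starch metabolism, did not pass in Bd21 at 0.15 ± 0.09 and rose by 0.32 ± 0.08 in Bd3-1. The other locus that fell was Bradi3g44990, at -0.41 ± 0.09 in Bd21 and -0.62 ± 0.09 in Bd3-1. The study names it in another module, as a putative cell-wall invertase. The study chose these loci on the same samples, so their directions are not independent evidence.

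Among plants of 1 group, the 10 genes whose levels followed Bradi1g22050 most closely included no member. They were ranked among the 12346 genes at or above the floor, of which members were 0.535%, so nothing is read from this. Likeness was measured as Pearson's r of log2(CPM + 1) over the plants of each group, averaged over the 4 groups, and the 10 genes at the top had mean r values between 0.59 and 0.70. Bradi4g45310 was first, with r between 0.66 and 0.75 over the 4 groups, and kept 56.9% of its control mean in Bd21 and 54.3% in Bd3-1. Bradi1g57470 followed at a mean r of 0.69 and kept 79.2% and 80.5%. The other 8 kept between 74.8% and 98.6%. These correlations are descriptions over plants that share a library method and differ in depth.

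**Figure D2:**
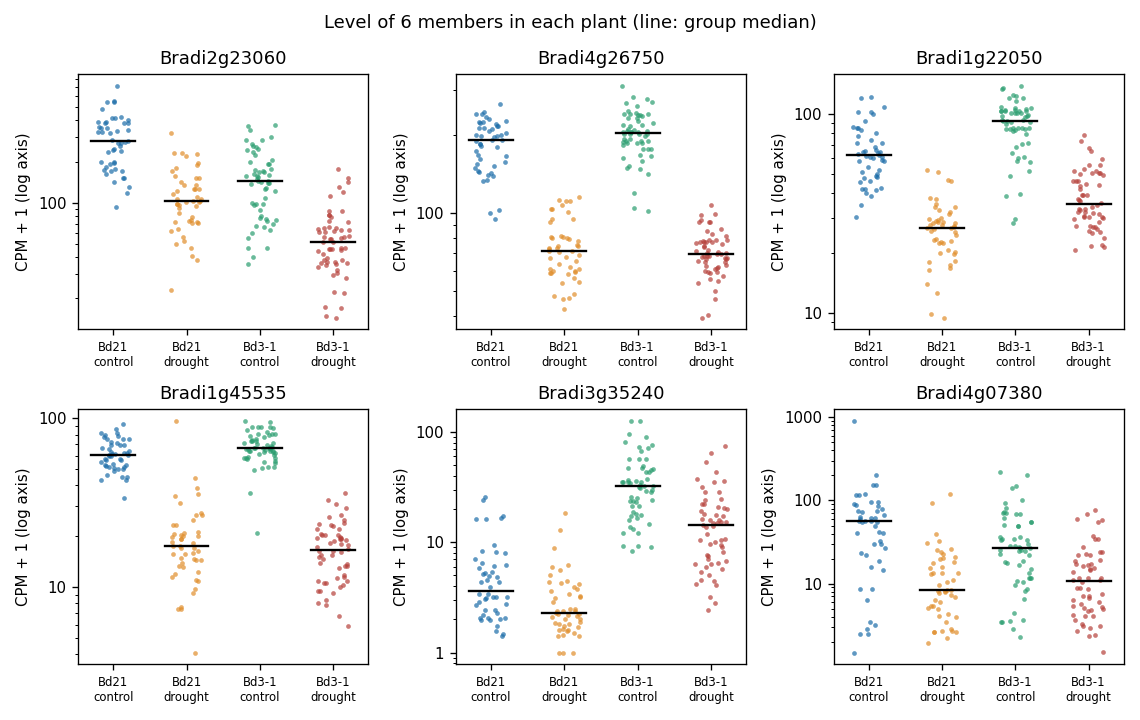
Level of 6 members in every plant on a log axis of CPM + 1, by accession and treatment, with black lines at the group medians. Bradi4g26750 forms narrow groups. Bradi1g45535 is narrow in control plants, whereas its Bd21 drought plants run from 3.1 to 95.4 CPM. Bradi3g35240 is higher in Bd3-1 (control median 31.4 CPM) than in Bd21 (2.65 CPM), and Bradi4g07380 spreads widely, with 1 Bd21 control plant at 908 CPM.

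By the mean of the log2 ratios of both accessions, Bradi2g16120 had the lowest level left. It ranged from 5.6 to 110.4 CPM (median 42.1) in Bd21 control and from 1.248 to 48.6 CPM (median 7.78) in Bd21 drought plants. In Bd3-1 it ranged from 7.28 to 190.1 CPM (median 72.2) and from 1.57 to 57.6 CPM (median 12.3). The droughted plants were below the control median in 48 of 49 and 58 of 58 cases, and the mean left was 24.0% in Bd21 and 18.9% in Bd3-1.

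Bradi1g61010 kept 22.3% in Bd21 and 22.1% in Bd3-1. Its control plants ranged from 17.9 to 76.5 CPM (median 44.0) in Bd3-1 and its droughted plants from 3.36 to 39.0 CPM (median 8.13). Few plants overlapped, 54 of 58 droughted Bd3-1 plants being below the lowest control plant. In Bd21 a single low control plant at 3.73 CPM left 2 of 49 droughted plants below the lowest control, although all 49 were below the control median.

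Bradi1g45535 combined a large fall with a narrow spread in control plants. It ranged from 32.7 to 90.9 CPM (median 59.5) in Bd21 control and from 3.1 to 95.4 CPM (median 16.5) in Bd21 drought plants. In Bd3-1 it ranged from 19.9 to 95.5 CPM (median 65.2) and from 4.86 to 34.8 CPM (median 15.6). All but 5 of 49 Bd21 and all but 13 of 58 Bd3-1 droughted plants were below the lowest control plant, and the mean left was 31.6% in Bd21 and 24.0% in Bd3-1. Its CV in Bd21 was 0.211 among control and 0.723 among drought plants.

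Of the others among the 10 lowest by this mean, 5 had low to moderate levels. Bradi1g17200 kept 28.1% in Bd21 and 23.2% in Bd3-1, Bradi5g13663 kept 26.6% in Bd21 and 26.7% in Bd3-1 and Bradi4g35890 kept 26.9% in Bd21 and 26.5% in Bd3-1. Bradi2g02720 kept 28.6% in Bd21 and 25.4% in Bd3-1 and Bradi1g69220 kept 30.6% in Bd21 and 24.7% in Bd3-1. The control means of these 5 in Bd21 lay between 6.14 and 30.9 CPM. Bradi4g35890 was listed at 0 in 6 of 49 Bd21 drought plants and in none of the control plants.

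Of the remaining abundant members, Bradi5g21532 had control means of 85.6 ± 48.4 CPM in Bd21 (SD, n = 48) and 125 ± 65.6 CPM in Bd3-1 (SD, n = 58), and kept 40.5% in Bd21 and 45.3% in Bd3-1. Bradi1g78260 had 85.0 ± 63.3 CPM and 80.1 ± 68.8 CPM over the same plants. Its spread was nearly as large as its mean, and 40 of 49 droughted Bd21 plants were below the control median, against 55 of 58 in Bd3-1.

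The members varied more from plant to plant than the typical gene. The median CV over members was 0.444 in Bd21 control and 0.405 in Bd3-1 control plants, against 0.253 and 0.255 over the 12346 genes. In drought plants the median member CV was 0.56 in Bd21 and 0.541 in Bd3-1, where the typical gene stood at 0.244 and 0.247. A lower level alone raises the counting part of a CV, and that share was not tested. No member had groups without overlap: in neither accession were all droughted plants of a member below the lowest control plant, which held for 0% of the 12346 genes too. Every droughted plant was below the control median for 19 members in Bd21, where this was so for 0.413% of the 12346 genes, and for 35 in Bd3-1, where it was so for 0.996%.

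Bradi4g07380 and Bradi3g37680 varied widely from plant to plant. Bradi4g07380 ranged from 0.482 to 908 CPM (median 55.0) in Bd21 control and from 0.904 to 117.3 CPM (median 7.35) in Bd21 drought plants. In Bd3-1 it ranged from 1.251 to 221 CPM (median 25.8) and from 0.522 to 76.8 CPM (median 9.75). The groups overlapped over nearly their whole range, with 47 of 49 and 49 of 58 droughted plants below the control median. The highest value belonged to Bd21 control replicate 11, without which the Bd21 control mean fell from 73.0 to 55.2 CPM and the level left in Bd21 rose from 19.8% to 26.2%. Bradi3g37680 was also highest in that plant, at 470.3 CPM against a Bd21 control median of 58.0 CPM, and kept 24.2% in Bd21 and 25.0% in Bd3-1. Without the plant it kept 27.6% in Bd21.

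The difference between accessions was not used to choose the members, apart from the floor of 4 CPM in both control groups. It was tested in the fit across all genes. In control plants 39 of the 66 members differed between Bd21 and Bd3-1 at an adjusted p of 0.05 (edgeR quasi-likelihood test), 31 of them higher in Bd3-1 and 8 higher in Bd21. Over all 26139 tested genes, 33.9% passed, 15.9% higher in Bd3-1 and 18.0% higher in Bd21. Over the 12346 genes at or above the floor, 20.2% were higher in Bd3-1 and 19.0% higher in Bd21. The median difference of the members was 0.23 higher in Bd3-1 on the log2 scale, where the median of all tested genes was 0.01 higher in Bd21.

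Bradi3g35240 differed most. It ranged from 0.403 to 24.7 CPM (median 2.65) in Bd21 control and from 7.25 to 125 CPM (median 31.4) in Bd3-1 control plants. Under drought it ranged from 0 to 17.3 CPM (median 1.27) in Bd21 and from 1.41 to 73.0 CPM (median 13.3) in Bd3-1. The Bd3-1 groups lay above the Bd21 groups of the same treatment with some overlap, by 2.87 ± 0.21 (SE) on the log2 scale in control plants (edgeR adjusted p = 2.92e-24) and by 2.83 ± 0.25 in drought plants (edgeR adjusted p = 1.63e-19). In Bd21 its control level differed between growth batches, with means of 3.06, 3.31, 11.9 and 1.84 CPM in batches 1 to 4. Only batch 3 was above the floor of 4 CPM, which the group mean of 4.91 CPM passed. The droughted mean was 49.5%, 83.5%, 19.9% and 147% of control in the same order. It was the member that did not fall in every batch. In Bd3-1 it kept between 37.9% and 50.4% over the 4 batches.

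Bradi5g16170 was also higher in Bd3-1, and its control plants did not overlap between the accessions. The share of all genes at or above the floor for which this held was not computed, so nothing is read from it. Control plants ranged for Bradi5g16170 from 13.4 to 39.3 CPM (median 26.7) in Bd21 and from 39.4 to 96.4 CPM (median 56.9) in Bd3-1. The highest Bd21 control plant was thus just below the lowest Bd3-1 control plant, and the difference was 1.16 ± 0.06 on the log2 scale (edgeR adjusted p = 3.01e-39). In drought plants the Bd3-1 level was higher by 1.07 ± 0.10 (edgeR adjusted p = 2.89e-18).

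Bradi1g41993 was higher in Bd3-1 by 1.98 ± 0.17 on the log2 scale in control plants, with means of 8.43 CPM in Bd21 and 34.6 CPM in Bd3-1 (edgeR adjusted p = 4.89e-20). Bradi3g46070 was higher in Bd3-1 by 1.64 ± 0.11, with means of 11.3 and 36.2 CPM (edgeR adjusted p = 1.35e-26). Bradi4g39810, whose counts were partly divided among similar loci, was higher in Bd3-1 by 1.18 ± 0.10, with means of 23.5 and 54.1 CPM (edgeR adjusted p = 9.51e-21). All 3 stayed higher in Bd3-1 under drought, by 1.33 ± 0.16, 1.63 ± 0.15 and 1.26 ± 0.11 in that order.

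In the opposite direction, Bradi1g06696 was higher in Bd21 control plants by 1.13 ± 0.21 on the log2 scale, with means of 39.2 CPM in Bd21 and 18.2 CPM in Bd3-1 (edgeR adjusted p = 3.22e-06). Under drought its difference was 0.65 ± 0.26 (edgeR adjusted p = 0.04) and no longer passed without Bd21 drought replicate 2, at 0.55 (edgeR adjusted p = 0.089). Bradi2g23060 was higher in Bd21 by 0.96 ± 0.14 in control (edgeR adjusted p = 1.13e-08) and by 1.00 ± 0.15 in drought plants (edgeR adjusted p = 3.8e-09). Bradi2g43410 and Bradi4g30850 were higher in Bd21 by 0.99 ± 0.16 and 0.62 ± 0.11 in control plants and by 0.85 ± 0.16 and 0.75 ± 0.12 in drought plants. The counts of Bradi2g43410 were partly divided with those of Bradi2g43405, and the part of this in its difference was not tested. The control difference of Bradi4g07380, 0.88 ± 0.29 higher in Bd21 (edgeR adjusted p = 0.0111), was 0.44 without Bd21 control replicate 11 and did not pass (edgeR adjusted p = 0.198).

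**Figure D3:**
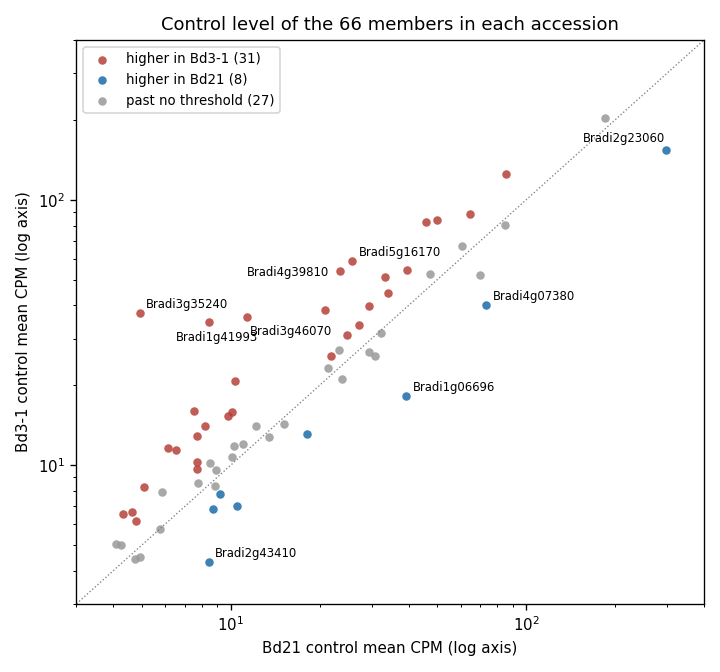
Control mean of each of the 66 members in Bd3-1 (vertical) against Bd21 (horizontal) on log axes of CPM, coloured by the edgeR test between accessions at an adjusted p of 0.05. The 31 members higher in Bd3-1 lie above the dotted line of equal level, with Bradi3g35240 farthest, and the 8 higher in Bd21 lie below it.

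The same comparison was made in drought plants. There 36 members passed, 26 higher in Bd3-1 and 10 higher in Bd21, where 36.5% of 26142 tested genes and 43.9% of the 12346 passed in either direction. Of the 12346, 24.2% were higher in Bd3-1 and 19.8% higher in Bd21. Of the 39 members called in control plants, 32 were called in the same direction in drought plants, 7 were not called and none was called in the opposite direction. Bradi1g22050 was higher in Bd3-1 by 0.43 ± 0.09 in control (edgeR adjusted p = 2.93e-05) and by 0.57 ± 0.10 in drought plants (edgeR adjusted p = 2.56e-07). Bradi1g56817, Bradi1g69220, Bradi1g78260 and Bradi3g33217 were called in drought plants only, a description of each test and not a test of the difference. Under the stricter edgeR filter on low counts (filterByExpr) 37 members remained tested in drought plants, of which 22 were called.

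The accessions were next compared in the size of the fall. The droughted fraction was lower in Bd3-1 for 41 members and lower in Bd21 for 25. In the fit of the product of genotype and treatment (G × E), 1 of 66 members passed an adjusted p of 0.1, against 1.8% of 26143 tested genes and 2.66% of the 12346. Of all tested genes, 0.627% passed with a positive estimate, Bd21 minus Bd3-1, and 1.17% passed with a negative one. The rule bounds the response of both accessions, so nothing is read from that count. Between 1 and 4 members passed under the other settings tried.

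The member that passed was Bradi3g33217. It ranged from 3.73 to 17.9 CPM (median 10.6) in Bd21 control and from 0.56 to 12.1 CPM (median 4.38) in Bd21 drought plants. In Bd3-1 it ranged from 5.11 to 18.8 CPM (median 12.0) and from 0 to 6.09 CPM (median 3.32). Control plants of the accessions covered nearly the same range, whereas 53 of 58 droughted Bd3-1 plants and 16 of 49 droughted Bd21 plants were below the lowest control plant. The mean left was 42.0% in Bd21 and 26.8% in Bd3-1.

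The other members with the widest gap between ratios and a lower level left in Bd3-1 were Bradi2g60441, which kept 39.6% in Bd21 and 20.7% in Bd3-1, Bradi1g41993 with 47.4% in Bd21 and 28.8% in Bd3-1, Bradi2g14650 with 46.8% in Bd21 and 30.5% in Bd3-1 and Bradi2g35907 with 43.2% in Bd21 and 28.2% in Bd3-1. Bradi4g07380 had the widest gap in the other direction, with 19.8% in Bd21 and 37.7% in Bd3-1. It was followed by Bradi1g56817 with 32.8% in Bd21 and 44.1% in Bd3-1, Bradi1g06696 with 29.9% in Bd21 and 40.0% in Bd3-1, Bradi1g68887 with 27.8% in Bd21 and 35.2% in Bd3-1 and Bradi2g06150 with 32.0% in Bd21 and 39.1% in Bd3-1.

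The plants were grown in 4 batches, each holding 10 to 15 plants of every group, and sequenced on 3 plates. Of the 66 members, 65 had a lower droughted mean in every batch of both accessions, and 24 were at or below 50% of control in all of them. The batches and plates divide the same plants whose ratios chose the members. The values by batch and plate are therefore a description, and no replication is read from them. The same counts were not made for the other genes at or above the floor. The median member kept between 33.7% and 40.5% over the 4 batches in Bd3-1 and between 35.2% and 50.4% in Bd21. Batch 4 of Bd21 held the highest of these, with 31 of 66 members at or below 50%, against 51 to 64 in its other batches. Over the 3 plates the median member kept between 39.8% and 43.0% in Bd21 and between 33.8% and 40.5% in Bd3-1.

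To place each plant, the level of every member was expressed as a percent of its accession's control mean and the median over the 66 members was taken. Control plants ranged from 62.2% to 148% (median 91.3%) in Bd21 and from 60.7% to 122% (median 94.1%) in Bd3-1. Drought plants ranged from 22.1% to 77.1% (median 36.2%) in Bd21 and from 20.2% to 53.9% (median 33.5%) in Bd3-1. In Bd3-1 the treatments did not overlap on this measure, which is built from the members and so carries no test. In Bd21, 1 droughted plant, replicate 2, stood at 77.1% and overlapped 7 control plants. It belonged to batch 4 and held the highest value of 11 members among the Bd21 drought plants, whereas replicates 9 and 18 held that of 10 members each. Without it the median member of that batch kept 46.4% and 36 members were at or below 50%. The rule was then met by 67 genes, among them all 66.

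**Figure D4:**
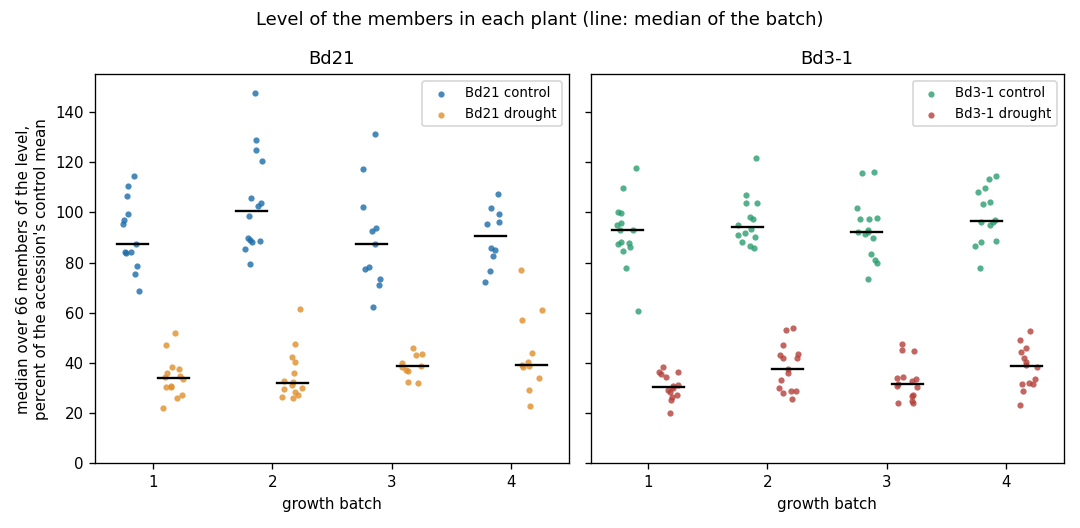
Median over the 66 members of the level in each plant, as a percent of the accession's control mean, by growth batch for Bd21 (left) and Bd3-1 (right), with black lines at the batch medians. Drought plants lie below control plants in every batch, except for Bd21 drought replicate 2 at 77.1% in batch 4.

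Whether the members moved together among plants of the same accession and treatment was measured by Pearson's r of log2(CPM + 1) over the 2145 pairs of members, a description in which all genes of a library share its depth. The median r was 0.16 in Bd21 control, 0.19 in Bd21 drought, 0.05 in Bd3-1 control and 0.17 in Bd3-1 drought plants. Over all pairs of the 12346 genes it was 0.07, 0.04, 0.06 and 0.05 in the same order. Values above 0.5 were found for 5.27%, 3.73%, 4.20% and 4.71% of member pairs, against 0.874% to 1.27% of all pairs. Member pairs with r below -0.3 numbered 43 in Bd21 control, 6 in Bd21 drought, 122 in Bd3-1 control and 1 in Bd3-1 drought plants. Their share over all pairs of genes was not computed.

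Grouping the members by their mean r over the 4 groups (average linkage, joined down to a mean r of 0.35, a limit chosen after the values were seen) gave 4 sets of 5 or more genes, which together held 32 members, and left 14 members alone. The largest set held 11 members, Bradi1g14810, Bradi1g41993, Bradi1g45535, Bradi1g69220, Bradi2g14940, Bradi2g16110, Bradi2g16120, Bradi2g22400, Bradi2g49057, Bradi4g25470 and Bradi4g35890, with a mean r between 0.35 and 0.46 in the 4 groups. The next held 9, Bradi1g59420, Bradi1g69710, Bradi2g35907, Bradi2g60441, Bradi3g29080, Bradi3g35240, Bradi3g46070, Bradi4g39810 and Bradi5g22950, with a mean r between 0.35 and 0.58. All 9 were called higher in Bd3-1 in control plants, as were 7 of the 11 in the largest set. Over all 66 members 31 were called so, and over the 12346 genes 20.2%. The 2 smaller sets, of 7 and 5 members, did not lean this way. They held 2 and 1 members called higher in Bd3-1, and also 2 and 1 called higher in Bd21. The correlation of the mean level of a set with log10 library total lay between -0.03 and 0.26 over the 4 sets and 4 groups.

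A set of 7 held the highly variable members Bradi4g07380, Bradi3g37680 and Bradi1g06696 together with Bradi1g61010, Bradi3g33217, Bradi3g52807 and Bradi4g29243. Bradi3g37680 and Bradi4g07380 were the closest pair of all, with r of 0.91 in Bd21 control, 0.85 in Bd21 drought, 0.78 in Bd3-1 control and 0.81 in Bd3-1 drought plants. In Bd21 control plants both were highest in replicate 11. Computed on ranks (Spearman), the highest r of any member pair in that group was 0.76. Bradi1g06696 followed Bradi4g07380 with r of 0.65 in Bd21 control, 0.75 in Bd21 drought, 0.71 in Bd3-1 control and 0.64 in Bd3-1 drought plants. The fourth set was that of Bradi1g22050, with Bradi1g17200, Bradi1g41115, Bradi2g23060 and Bradi2g49870, at a mean r between 0.33 and 0.52.

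**Figure D5:**
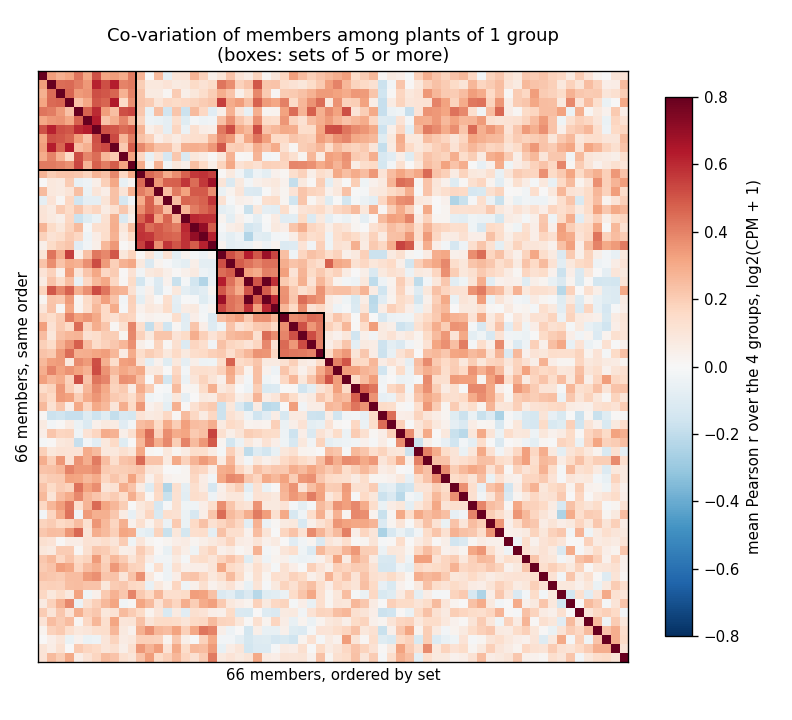
Mean Pearson r of log2(CPM + 1) over the 4 groups for every pair of the 66 members, in the same order on both axes, with boxes around the 4 sets of 5 or more. The boxes of 11, 9, 7 and 5 members stand out from pale surroundings, and the sets of 9 and 7 share little colour.

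By locus number, 18 members were on chromosome 1, 21 on chromosome 2, 10 on chromosome 3, 9 on chromosome 4 and 8 on chromosome 5. These were between 0.353% of the 2830 genes at or above the floor on chromosome 3 and 0.745% of the 2819 on chromosome 2. Only 2 pairs of members were neighbours in the locus order of the table (at most 3 rows apart), and both were adjacent. In the first, Bradi2g16110 kept 34.2% in Bd21 and 26.0% in Bd3-1 beside Bradi2g16120, and r between them was 0.61 in Bd21 control, 0.55 in Bd21 drought, 0.71 in Bd3-1 control and 0.65 in Bd3-1 drought plants. The loci on either side did not share the fall, Bradi2g16100 being at 10.5 and 10.1 CPM and Bradi2g16130 at 7.26 and 9.25 CPM in Bd21 control and drought plants. Both members were higher in Bd3-1 control plants, by 0.78 ± 0.15 and 0.82 ± 0.14 on the log2 scale.

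The second pair, Bradi5g22940 and Bradi5g22950, were both members. Bradi5g22940 kept 44.3% in Bd21 and 44.8% in Bd3-1, and Bradi5g22950 kept 39.4% in Bd21 and 43.0% in Bd3-1. Bradi5g22950 had 50.1 ± 14.5 CPM in Bd21 control (SD, n = 48) and 83.9 ± 27.8 CPM in Bd3-1 control plants (SD, n = 58), and Bradi5g22940 had 12.2 ± 3.44 CPM and 14.0 ± 3.06 CPM. The loci on either side also had lower droughted means, Bradi5g22930 being at 8.39 CPM in control and 5.71 CPM in drought plants of Bd21 and Bradi5g22961 at 2.21 and 1.01 CPM. In Bd3-1 these were 14.2 and 9.17 CPM for Bradi5g22930 and 3.12 and 1.61 CPM for Bradi5g22961. The r between Bradi5g22940 and Bradi5g22950 was 0.57 in Bd21 control, 0.43 in Bd21 drought, 0.09 in Bd3-1 control and 0.58 in Bd3-1 drought plants. The counts of this pair are not independent, since in 73 libraries both estimates were fractions, and in 72 of them the fractional parts added up to a whole count (within 0.011), so that reads were divided between the 2 loci.

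Such divided reads bear on 9 members, whose estimated counts were not whole in over 20% of the libraries in which they were detected, whereas 42 members had whole counts throughout. For 6 of the 9 the fractional parts were complementary to those of a locus with a neighbouring number in 98.6% or more of the libraries concerned. Bradi3g49730 shared estimates with Bradi3g49740 in all 201 such libraries. It kept 31.7% in Bd21 and 32.7% in Bd3-1, while Bradi3g49740 stood at 120.0% and 120.1% of control, and the sum of both kept 84.3% and 65.2%. Bradi2g43410 shared with Bradi2g43405, and their sum kept 60.7% in each accession. Bradi2g49057 shared with Bradi2g49050, and their sum kept 59.3% and 51.5%. These 3 would not meet the rule as pairs. Bradi3g37680 shared with Bradi3g37670, which kept 20.6% and 24.1%, and the pair kept 24.0% and 24.9%. Bradi5g22940 and Bradi5g22950 kept 40.3% and 43.3% as a pair. For Bradi4g07380, Bradi4g36120 and Bradi4g39810 no single locus complemented the fractions in more than 22.7% of the libraries.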

How the data were processed

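Per the labels and the study's methods, RNA of the youngest expanded leaf of each plant was sequenced by 3′ digital gene expression with unique molecular identifiers. The submitters' processing notes list Trimmomatic 0.39, cutadapt 2.10, Bowtie2 2.4.0 and RSEM 1.3.3. The table holds expected counts deposited by the authors, not normalized, for 32523 transcripts. Reads of both accessions were assigned to primary transcripts of Bd21, so a Bd3-1 level also depends on how well its reads matched, and RSEM divides reads among similar transcripts.

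CPM used the column sum of all rows. Expected counts were rounded and fitted with edgeR 4.0.16 in R 4.3.3 (TMM scaling, quasi-likelihood F-test, Benjamini-Hochberg adjustment over all tested genes, threshold 0.05, or 0.1 for the interaction). Genes detected in more than 10 of the 214 libraries were tested. Each contrast was fitted on the plants it compares, and the interaction on all but Bd3-1 drought replicate 59. SEs of log2 differences were derived from the F statistic. The fit was tested on simulated data with known changes. Correlations used log2(CPM + 1). Tables were handled with Python 3.11.15, pandas 2.3.3 and scipy 1.17.1. The alternatives were DESeq2 1.42.0, other scaling and filters, growth batch or sequencing plate as a term, the replicate number as a block (dispersion trend estimated on every 5th gene) and leaving out single libraries. Batches and plates came from the records of plants in the supplement of the study, matched by plant number.

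The members and lists were chosen with earlier results of these data known. The members named were the 10 with the highest control mean, the 10 with the lowest ratio, the 5 at each end of the difference in ratio between accessions, the 5 with the largest called control difference in each direction, the locus named by the study, neighbouring loci and the 3 on each side of the threshold. Others were named after their values were seen. The reference table pairs 0 of its 31335 genes with Bradi locus names, so no sequences, promoter motifs or further gene roles are given.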

Additional observations from a re-analysis of the deposited data

Results flagged for a closer look

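The estimated drought effect of Bradi3g33217 differed between Bd21 and Bd3-1. It was -1.30 ± 0.10 (SE) on the log2 scale in Bd21 and -1.93 ± 0.09 in Bd3-1. The difference of 0.64 ± 0.14 passed the interaction threshold in the fit across all genes, as did 2.66% of the 12346 genes at or above the floor. The rule that chose the members used both of these effects, so the pass is given as a description. Droughted plants were below the control median in 48 of 49 cases in Bd21 and in 58 of 58 cases in Bd3-1.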

How the results depend on the processing

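Of the 39 members called between accessions in control plants, 37 kept their direction and passed under every alternative tried, and of the 36 in drought plants 33 did so wherever they were tested. Under the filterByExpr filter 22 members were called in drought plants, because 37 of the 66 were tested there, and over all genes it called 5350 instead of 8860 in control and 5951 instead of 9546 in drought plants. The interaction called 1 member, and 3 with DESeq2, 4 with filterByExpr and 2 with growth batch as a term. Leaving out single libraries chosen after seeing the data (Bd21 control replicate 11 or Bd21 drought replicate 2) gave 1 to 2. Bradi2g14650 and Bradi4g07380 did not pass in control plants under the replicate block, nor did Bradi2g16110 and Bradi2g16120 in drought plants. With the replicate number as a block, 41 members were called in control and 35 in drought plants. The labels do not say that a number pairs plants, and the median r of same-numbered plants lay between 0.05 and 0.12, but same-numbered plants of the accessions shared a sequencing plate in 47 of 48 cases in control and 46 of 49 in drought plants, and a growth batch in 32 and 5 cases. Bradi2g16110 also did not pass in drought plants under 5 other alternatives, with an adjusted p of 0.054 to 0.058 in edgeR or DESeq2. Bradi1g06696 did not pass there with DESeq2 (adjusted p = 0.058), and Bradi2g14650 did not pass in control plants without the largest Bd21 control library (edgeR adjusted p = 0.060).

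The rule was met by 24 members when it was required within each growth batch, by 59 genes with group medians, by 73 with TMM scaling and by 62 without Bd21 control replicate 11. Among members of at least 20 CPM the median pair correlation was 0.28 in Bd21 drought, 0.12 in Bd3-1 control and 0.25 in Bd3-1 drought plants. The cause was not tested for any of these. Low members rest on few counts in a library, which limits their values in single plants.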
